A study of Mus musculus with 6 samples.

Results

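The Ifitm genes encode small membrane proteins of the family named interferon-induced transmembrane proteins, a name that does not mean that interferon induces every member. The 6 genes followed here are Ifitm1, Ifitm2, Ifitm3, Ifitm5 and Ifitm6, which lie side by side on mouse chromosome 7, and the more distant Ifitm10 on the same chromosome. Their DNA methylation was read at CpG positions, that is, at cytosines followed by guanine, inside each gene's RefSeq extent and 2 kb on each side (build mm10). This gave 96 positions measured in any of the 6 libraries, of 1352372 in all, and 27 measured in all 6 libraries, of 552338. A position counted as measured at 10 or more reads, and a position measured in all 6 libraries is called shared. The family was chosen by its measured values: the difference between genotypes at Ifitm1 in these libraries was known when the genes were selected, so every difference between genotypes below is a description and carries no test.

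IFITM1, IFITM2 and IFITM3 sit in cell and endosome membranes and hinder the entry of many enveloped viruses, and their genes are induced by interferons through STAT and IRF factors. IFITM5 is best known from bone-forming osteoblasts. Methylation of cytosine in CpG-rich gene starts usually goes with low transcription, while CpGs outside such starts are often methylated. IDH1 makes 2-oxoglutarate, which the TET enzymes need to oxidise methylated cytosine.

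DNA was taken from male C57BL/6 mice aged 7 to 10 months, from marrow pooled over 6 mice per group, with 10 ng of DNA per library. Control mice were IDH1+/+ VavCre+ littermates and knock-in (KI) mice were IDH1+/lsl VavCre+, so both groups carried Cre, driven in blood cells by Vav. From each genotype, long-term stem cells (LT-HSC), short-term stem cells (ST-HSC) and the more differentiated multipotent progenitors (MPP) were sorted by surface markers, and 1 library each was made by enhanced reduced representation bisulfite sequencing, which reads fragments near CpG-rich cutting sites. With 1 library per genotype and cell type there was no replicate. Differences between libraries below therefore have no replicate check, and read intervals cover counting error at most. Sets of 3 values below are in the order LT-HSC, ST-HSC, MPP.

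The libraries held 38284759 to 53884467 reads, counted as coverage summed over positions, and the median coverage of the Ifitm positions was 22 to 41 reads. The deposited names showed no sequencing lane with both genotypes, which means that lane and genotype cannot be told apart. Of the genes for the sort markers, Kit was at 1.46 to 8.96% methylation in the 6 libraries, and Ly6a, Slamf1 and Cd48 had no shared position, so the sort was not checked by these data. Methylation also does not check the knock-in allele.

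The start regions of the members are shown first. Each is 300 bases from RefSeq (build GRCm38.p6, equal to mm10), from 250 bases before to 50 bases after an annotated start, 5′ to 3′ in the direction of transcription. In the first 3 the capitals mark every CG, and none of these CGs was measured in any library.
Ifitm1, chr7:140967826-140968125, plus strand: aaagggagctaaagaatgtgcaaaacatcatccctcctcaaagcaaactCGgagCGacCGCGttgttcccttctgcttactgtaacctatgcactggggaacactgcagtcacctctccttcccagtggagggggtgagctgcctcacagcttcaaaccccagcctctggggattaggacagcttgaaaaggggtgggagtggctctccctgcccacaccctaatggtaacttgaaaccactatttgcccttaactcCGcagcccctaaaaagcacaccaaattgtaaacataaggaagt
Ifitm2, chr7:140955912-140956211, minus strand: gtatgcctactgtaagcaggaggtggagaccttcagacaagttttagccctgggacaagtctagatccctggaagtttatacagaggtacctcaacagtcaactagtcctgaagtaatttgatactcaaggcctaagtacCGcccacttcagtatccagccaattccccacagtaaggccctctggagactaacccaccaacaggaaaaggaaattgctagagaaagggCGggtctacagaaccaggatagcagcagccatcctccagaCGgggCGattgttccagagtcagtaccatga
Ifitm3, chr7:141010695-141010994, minus strand: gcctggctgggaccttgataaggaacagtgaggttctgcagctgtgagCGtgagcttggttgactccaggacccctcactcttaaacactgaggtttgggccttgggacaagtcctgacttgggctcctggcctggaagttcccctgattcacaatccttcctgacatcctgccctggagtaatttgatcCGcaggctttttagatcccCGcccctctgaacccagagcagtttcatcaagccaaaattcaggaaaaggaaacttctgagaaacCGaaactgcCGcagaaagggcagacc
In the next the capitals mark only the CGs with at least 1 measured cytosine, 23 of 28.
Ifitm10, chr7:142372278-142372577, minus strand: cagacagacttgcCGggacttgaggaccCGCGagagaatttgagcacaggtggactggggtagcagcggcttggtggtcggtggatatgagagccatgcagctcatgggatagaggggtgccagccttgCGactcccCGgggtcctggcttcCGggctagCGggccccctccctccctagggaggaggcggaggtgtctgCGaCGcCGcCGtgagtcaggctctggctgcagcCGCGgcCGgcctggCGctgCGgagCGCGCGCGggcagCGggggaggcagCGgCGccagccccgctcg

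The Ifitm1, Ifitm2 and Ifitm3 windows held 5, 4 and 5 CGs, below the median of 7 over 32851 RefSeq windows of the same length. The Ifitm5 and Ifitm6 windows held 8 and 2 CGs, also with none measured. Ifitm10 differed, with 32 and 28 CGs in overlapping windows at 2 of its starts, and 2 CGs at another start with none measured. The motif CCGG, the cutting site of the enzyme commonly used for this assay, was in the 2 overlapping Ifitm10 windows and in no other member window, against 52.8% of all windows. Of interferon-related motifs, GAAA, any 2 bases, GAAA (a core that IRF and STAT complexes bind, searched on both strands) was in the Ifitm2 window as GAAAAGGAAA and in the Ifitm3 window as GAAAAGGAAA and GAAACCGAAA. That motif was in 3.44% of all windows. TTCNNNGAA, the STAT dimer core, was in the Ifitm3 window as TTCTGAGAA, overlapping its GAAACCGAAA match, in the Ifitm6 window as TTCCTTGAA, and in 8.30% of all windows. These are matches of letters, and no methylation value was measured at them.

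What was measured outside Ifitm10 lay outside the start windows, and the part of the start sequence in this was not tested. Ifitm1 (chr7:140967429-140969827, plus strand) had 5 positions, all shared and all 117 to 230 bases past its 3′ end. Ifitm3 (chr7:141009590-141010744, minus strand) had 18, of which 13 were shared and all lay past its 3′ end, by 302 to 1116 bases. Ifitm2 (chr7:140954837-140959686, minus strand) had 8, and 5 of them, 516 to 622 bases before the annotated start and within an extent that includes a predicted transcript, were measured in every library except KI LT-HSC. Ifitm6 (chr7:141015812-141016892, minus strand) had 5, all 836 to 951 bases before its start. Ifitm5 (chr7:140948958-140950243, minus strand) had 1, inside the gene and 290 bases after its start, where the region also overlaps Pgghg. Ifitm10 (chr7:142325835-142373779, minus strand) had 59, of which 9 were shared, 57 were inside the gene and 25 were in its start windows. Exons, introns and UTRs were not analysed here.

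**Figure D1:**
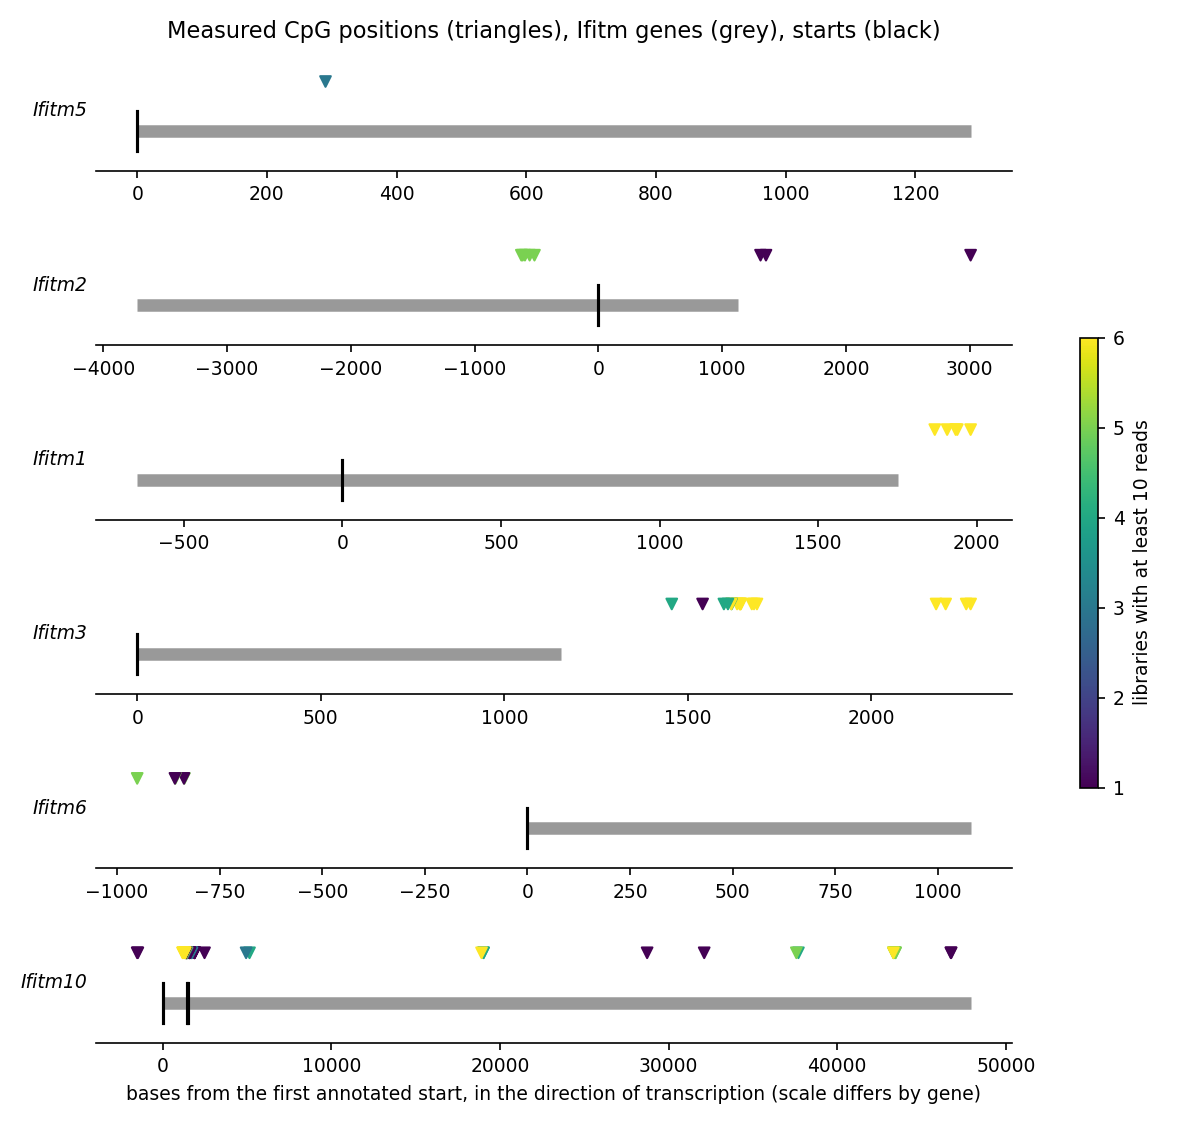
CpG positions measured at each Ifitm gene, in bases from its first annotated start in the direction of transcription (scale differs by gene); grey bars are gene extents, black ticks starts, and triangles positions, coloured by the number of libraries with at least 10 reads. The 5 Ifitm1 and all 18 Ifitm3 triangles lie past the grey bar, and Ifitm10 alone has positions at its starts.

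Methylation past the 3′ end of Ifitm1 was higher in each KI library than in the Control library of the same cell type. The mean over the 5 positions was 30.8%, 33.0% and 17.0% in the Control libraries. Among the KI libraries it was 60.8% for LT-HSC, 55.0% for ST-HSC and 58.4% for MPP. The highest Control library thus lay below the lowest KI library, and the KI libraries were closer together than the Control ones.

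The KI minus Control difference in the Ifitm1 mean was 30.1 percentage points for LT-HSC, 22 for ST-HSC and 41.4 for MPP, a mean of 31.2 ± 9.77 (SD across cell types, not across replicates). It ranked 4 among 16983 gene regions with at least 5 shared positions, by the same contrast that the choice of the gene rested on. In pooled reads the Control libraries held 38.2% (95% Wilson interval 32.1 to 44.6, 228 reads), 33.1% (27.6 to 39.1, 254 reads) and 22.6% (16.7 to 29.8, 155 reads) methylated reads. The KI libraries held 66.2% (61.2 to 70.9, 358 reads), 54.9% (47.5 to 62.0, 175 reads) and 58.1% (51.1 to 64.7, 198 reads) in the same order. The pooled differences were 28.0, 21.8 and 35.5 points. Pooled read numbers are coverage summed over the 5 positions, so a read over several positions counts more than once. Control LT-HSC, for example, had 19 reads at each forward strand position and 62 to 65 at each reverse strand position. The pooled intervals are therefore too narrow even for counting error.

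The 5 Ifitm1 positions differed among themselves, and are given from the one nearest the gene outward. At 117 bases past the end the Control levels were 21.1%, 40.4% and 7.69%, against KI levels of 42.2%, 46.9% and 48.0%. At 156 bases they were 5.26%, 13.7% and 0% (0 of 13 reads in MPP, which allows up to 23.1%), against KI levels of 39.0%, 68.8% and 63.0%. At both, all KI libraries were above all Control libraries, narrowly so at the nearer one, where Control ST-HSC lay just below KI LT-HSC.

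At 183 bases the Control levels were 0%, 26% and 0%, the zeros from 62 reads in LT-HSC and 41 in MPP, which allow up to 4.84% and 7.32%. The KI levels there were 79.3%, 37.8% and 36.4%. The KI LT-HSC library stood far above the other libraries at this position, and the KI ST-HSC and MPP libraries still lay above all Control libraries. At 188 bases Control stood at 44.4%, 36.0% and 31.8%, and KI at 63.0%, 45.9% and 67.6%, with KI ST-HSC only just above Control LT-HSC.

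At 230 bases, the farthest position, the Control levels were 83.1%, 49.0% and 45.5%, and the KI levels were 80.6%, 75.7% and 77.1%. Here the genotypes overlapped, because the Control LT-HSC library was the highest of the 6. So 4 of the 5 Ifitm1 positions had all KI libraries above all Control libraries. The same held for 3.72% of all 552338 shared positions, and for 9.07% of the 99023 shared positions with a mean level of 10 to 90%. Of the 27 shared Ifitm positions, 15 were in that middle range, and those 4 at Ifitm1 were the only ones with all KI above all Control. None of the 27 had all KI libraries below all Control libraries, against 1.06% of all shared positions.

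**Figure D2:**
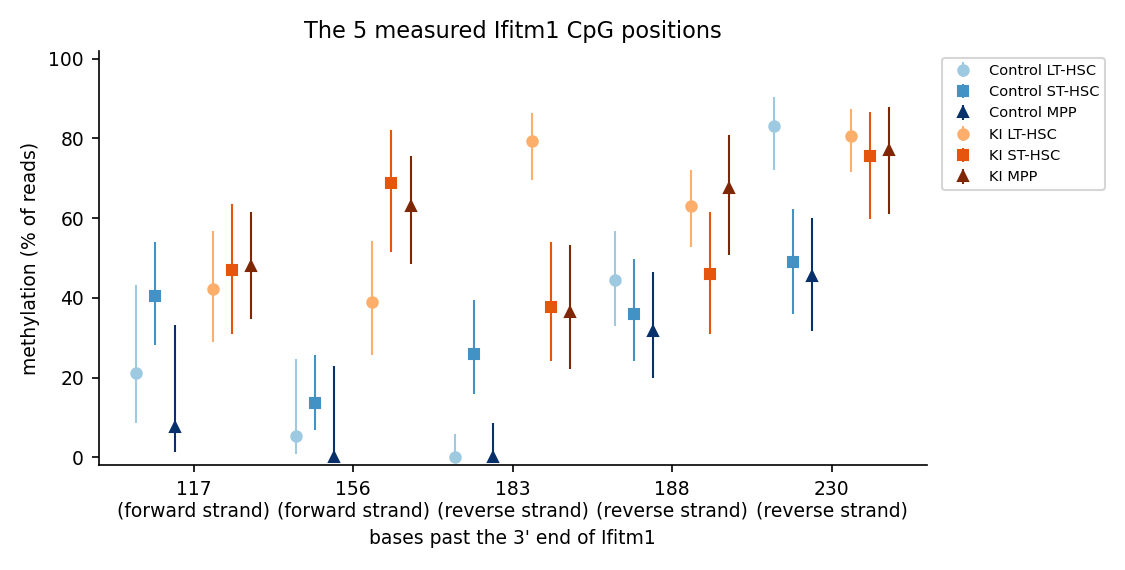
Methylation (percent of reads with C) at each of the 5 CpG positions past the 3′ end of Ifitm1, labelled by distance in bases (evenly spaced, not to scale) and read strand, with 1 marker per library and 95% Wilson intervals on its reads. Every KI marker (orange) lies above every Control marker (blue) at the 4 nearer positions, and Control LT-HSC, at 83.1%, is highest at the farthest one.

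The 5 positions came from 2 sets of reads, 2 positions on the forward strand and 3 on the reverse strand, so they are not 5 independent measurements. No CpG at Ifitm1 was read on both strands. In this comparison, added after the data were seen, the forward strand means were 13.2%, 27.1% and 3.85% in the Control libraries, against 40.6%, 57.8% and 55.5% in the KI ones. The reverse strand means were 42.5%, 37.0% and 25.8% in Control, and 74.3%, 53.2% and 60.4% in the KI libraries. The differences were 27.5, 30.8 and 51.7 points on the forward strand and 31.8, 16.1 and 34.6 points on the reverse strand. KI was thus above Control on either strand in every cell type, and the order of the cell types by size of difference was not the same on the 2 strands.

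Ifitm2, upstream of whose start 5 positions were read in all libraries but KI LT-HSC, was also higher in KI in the 2 cell types that could be compared. The means were 43.1%, 56.6% and 61.4% in the Control libraries, and 74.5% and 70.6% in KI ST-HSC and MPP. The differences were 17.8 points in ST-HSC and 9.11 points in MPP, and in pooled reads 15.1 and 3.71 points. Not every position followed the mean: at 516 bases before the start KI ST-HSC was at 37.8% and Control ST-HSC at 57.4%. In MPP, KI was lower at 593 bases, with 71.2% against 100%, and at 555 bases, with 97.4% against 100%. Neighbouring positions also differed widely: at 593 bases before the start Control LT-HSC was at 7.89% and Control MPP at 100%, and at 622 bases the same libraries were at 7.5% and 8.70%. Another 3 Ifitm2 positions were measured in Control MPP alone.

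Between Ifitm2 and Ifitm1, 4 further positions lie 3391 bases or more before the Ifitm1 extent and outside all member regions. Their mean was 46.1%, 65.8% and 80.1% in the Control libraries, and 73.8% and 82.6% in KI ST-HSC and MPP, with KI LT-HSC not measured. By this mean the KI and Control libraries overlapped. At the position nearest Ifitm1, KI ST-HSC and MPP were at 55.1% and 57.3%, against 9.71%, 34.5% and 34.9% in the Control libraries. At each other position of the block the genotypes overlapped. On the other side of Ifitm1 the next measured position was 12149 bases past the gene's end, in 2 libraries only, so how far the Ifitm1 difference reaches cannot be read from these data.

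Ifitm3, the family member with the best-known antiviral role, was nearly unmethylated past its 3′ end in every library. The mean over 13 shared positions was 1.45%, 3.66% and 2.45% in the Control libraries, against 4.98%, 5.05% and 6.05% in the KI ones. All KI means lay above all Control means, by 3.53, 1.40 and 3.6 points within cell types (mean 2.84 ± 1.25, SD over cell types). In pooled reads the differences were 3.94, 4.26 and 3 points. The mean difference of 2.84 points ranked 2180 among 16983 gene regions. Of all gene regions, 27.2% were higher in KI in every cell type. The mean over all shared positions was also higher in each KI library than in each Control library. The direction at Ifitm3 thus does not set it apart from many other regions. No single Ifitm3 position had all KI libraries above all Control libraries. Only 4 of the 13 reached 10% in any library, and 3 were at 0% in all 6.

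The shared Ifitm3 positions lay in 2 blocks, 4 of them farther from the gene and 9 nearer. The mean of the farther block was 0%, 6.88% and 4.26% in the Control libraries, against 6.37%, 12% and 9.43% in the KI ones. The 0% in Control LT-HSC came from 47 to 63 reads at each position, which allow up to 4.76 to 6.38% at a position. Summed over positions the coverage was 219, in which a read over several positions can count more than once. The 9 nearer positions stood at 2.09%, 2.22% and 1.65% in Control and at 4.37%, 1.95% and 4.54% in the KI libraries, so that ST-HSC was slightly lower in KI there.

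Ifitm6, with positions upstream of its start, was at 100% in the Control libraries and in KI MPP, and at 91.7% in KI ST-HSC, at 3 positions not measured in KI LT-HSC. The single Ifitm5 position was at 82.4% in Control ST-HSC and at 100% in KI ST-HSC and KI MPP, and was not measured in the other 3 libraries. These are the most methylated of the clustered genes, and Ifitm3 is the least. Between the genotypes they can be compared in ST-HSC, and for Ifitm6 in MPP.

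**Figure D3:**
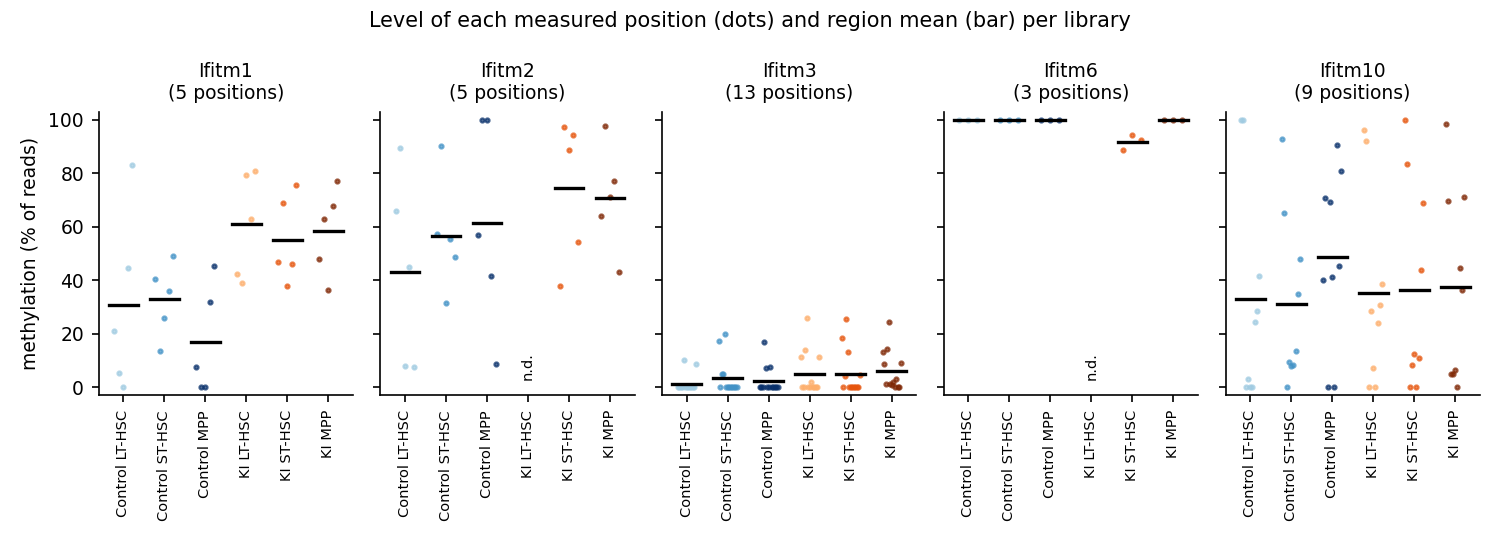
Methylation (percent of reads) of each position (dots) and their mean (black bars) in each library, for Ifitm1, Ifitm2, Ifitm3, Ifitm6 and Ifitm10; "n.d." marks a library with fewer than 10 reads at those positions. The Ifitm1 mean is at 17.0 to 33.0% in Control and 55.0 to 60.8% in KI, the Ifitm3 mean stays at 6.05% or below, and the Ifitm6 mean is at 91.7% or above.

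Ifitm10, whose function is little known, was the only member measured at its starts, and its Control MPP library stood apart. The mean over all 9 shared positions was 33.1%, 31.2% and 48.6% in the Control libraries, against 35.2%, 36.4% and 37.3% in the KI ones. KI minus Control was 2.15, 5.20 and -11.3 points. With all positions of each library it was -14.2, 14.4 and 3.14 points, so the direction in LT-HSC and MPP depended on which positions were taken. In the start windows, 7 shared positions averaged 13.9% and 17.5% in Control LT-HSC and ST-HSC, 46.7% in Control MPP, and 18.4%, 20.6% and 24.0% in the KI libraries. The other 5 libraries thus lay together, below Control MPP.

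Coverage at the Ifitm10 start also differed in that library: Control MPP had at least 10 reads at 7 of the 25 start window positions, against 14 to 24 in the other libraries. Of its 7 values, 3 were over 50%. None was over 50% in Control LT-HSC, Control ST-HSC or KI LT-HSC, and 1 was in each of KI ST-HSC and KI MPP. The part of low coverage in this difference was not tested. Away from the start, 17 positions more than 2000 bases into the gene were mostly methylated, with medians per library from 85.4% in Control MPP to 100% in Control LT-HSC and KI MPP. The 2 shared positions in the gene body averaged 100%, 79.0% and 55.4% in Control and 94.0%, 91.7% and 83.9% in the KI libraries.

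**Figure D4:**
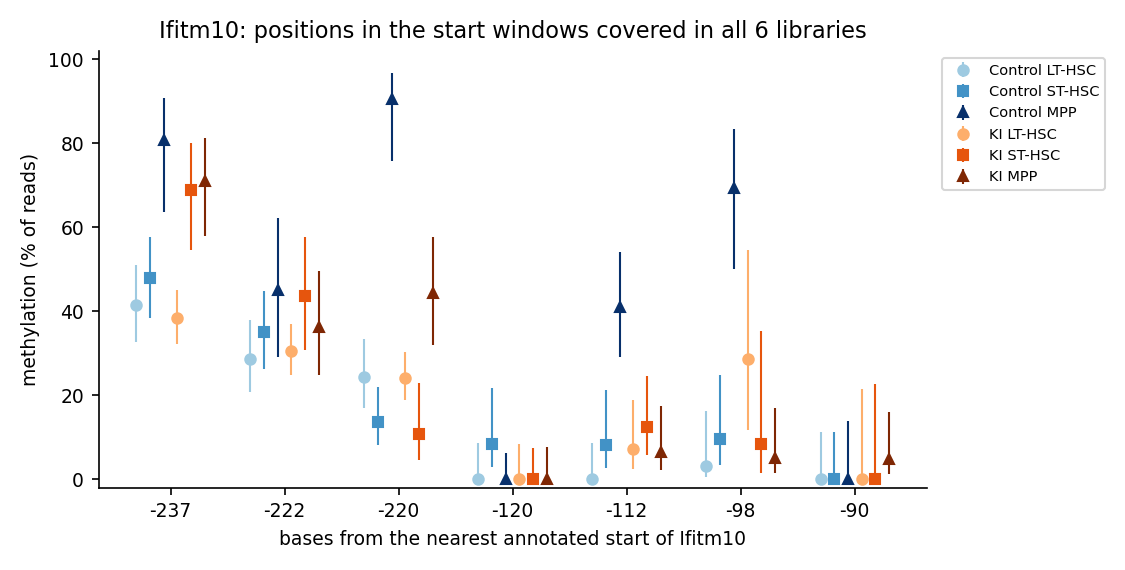
Methylation (percent of reads) at the 7 shared positions in the Ifitm10 start windows, labelled by distance in bases from the nearest annotated start (evenly spaced, not to scale), with 1 marker per library and 95% Wilson intervals on its reads. Control MPP is highest at 5 of the 7 positions, reaching 90.6%, and is at 0% at the other 2.

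Position by position, the genotype difference of at least 25 points was found in KI above Control at 3 of the 27 shared Ifitm positions in LT-HSC (2 at Ifitm1, 1 at Ifitm10), against 2.36% of all shared positions. It was found at 2 in ST-HSC, both at Ifitm1, against 2.6%, and at 6 in MPP (all 5 of Ifitm1, 1 at Ifitm10), against 3.72%. In the other direction the counts were 0 in LT-HSC against 2.32%, 0 in ST-HSC against 1.07%, and 3 in MPP against 2.56%, all 3 at Ifitm10. Because Ifitm1 was chosen on this contrast, nothing is read from these shares.

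The step from LT-HSC to MPP within a genotype was not the contrast that chose the members. It uses reads of the same libraries, so at Ifitm1 it is not independent of that choice. In each genotype the reads of the 2 libraries were compared by Fisher's exact test (two-sided), with Benjamini-Hochberg adjustment over all 552338 shared positions. A call needs an adjusted p under 0.01 together with a gap of at least 25 points, and compares the 2 libraries, not the cell types. Gaps of that size were also common within 1 library, between the strands of partly methylated CpGs. In Control, 65.1% of such CpGs in MPP and 54.1% in LT-HSC differed by 25 points or more. In KI the shares were 33.1% in MPP and 44.3% in LT-HSC. The Fisher test covers counting error only, and the part of this spread in the calls was not tested. In Control, 4 Ifitm positions were called higher in MPP, all at the Ifitm10 start, against 2.89% of all shared positions. There were 2 called lower, against 2.36%, 1 at Ifitm10 and 1 at Ifitm1. In KI, 1 was called higher, at Ifitm10, against 1.11%, and 1 lower, at Ifitm1, against 0.388%.

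The Ifitm10 start calls in Control were 24.3% to 90.6% at 220 bases before the nearest start (Fisher exact, adjusted p = 2.37e-09), 3.23% to 69.2% at 98 bases (adjusted p = 4.04e-06), 0% to 41.1% at 112 bases (adjusted p = 1.36e-05) and 41.5% to 80.6% at 237 bases (adjusted p = 0.00272). The gene body position fell from 100% to 40%, with 10 reads in MPP (Fisher exact, adjusted p = 0.00016). In KI the position at 237 bases went from 38.4% to 70.9% (Fisher exact, adjusted p = 0.00131). That position was therefore called in both genotypes, and the other 3 Control start calls were not called in KI, a difference that was not itself tested.

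At Ifitm1 the Control call was the position 230 bases past the end, from 83.1% in LT-HSC to 45.5% in MPP (Fisher exact, adjusted p = 0.00108). The KI call was the one at 183 bases, from 79.3% to 36.4% (Fisher exact, adjusted p = 0.00133). The 2 calls were thus at different positions. No Ifitm3 position was called in either genotype.

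A fit over both genotypes for changes with cell type covered Ifitm1, Ifitm3 and Ifitm10, since Ifitm2, Ifitm5 and Ifitm6 had no shared position. It called none of these 3, nor any other gene region. limma was fitted to methylated against unmethylated reads, as a log2 ratio, of 16983 gene regions, with genotype as a block, so that its spread is between libraries. The Ifitm1 region was lower in MPP than in LT-HSC by a log2 ratio of -0.78 (SE 0.40, limma adjusted p = 0.588). Ifitm3 stood at 0.64 (SE 0.45, limma adjusted p = 0.691) and Ifitm10 at 0.59 (SE 0.37, limma adjusted p = 0.647). For ST-HSC minus LT-HSC the values were -0.50 (SE 0.40, limma adjusted p = 0.812) at Ifitm1, 1.00 (SE 0.45, limma adjusted p = 0.715) at Ifitm3 and 0.18 (SE 0.37, limma adjusted p = 0.933) at Ifitm10. Of all regions limma called 0% (0 of 16983) in either comparison, and 1196 regions for ST-HSC and 1585 for MPP had an unadjusted p under 0.05.

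Other genes of the interferon system were set beside all gene regions. A list of 51 genes of interferon receptors, JAK and STAT signalling, IRF factors, sensors and induced effectors held 29 with at least 5 shared positions, 9 with 1 to 4, 11 with none and 2 not in the gene table (Mx1 and Mx2). None of the 29 was 10 points or more higher in KI in LT-HSC, ST-HSC or MPP, against 1.84%, 3.1% and 3.3% of all gene regions. In LT-HSC 2 were that much lower, Tyk2 and Oasl1, against 0.96% of all regions. In ST-HSC 1 was, Tyk2, against 0.336%, and in MPP none was, against 0.977%. The median difference of the list was -0.124, 0.885 and 1.51 points, beside -0.00407, 0.815 and 1.27 points over all regions. In all 3 cell types 8 of the 29 were higher in KI by any amount and 3 lower, and over all regions the shares were 27.2% and 4.58%. Of the 29, 14 had a mean level under 10%, as did 8674 of the 16983 gene regions. In a list of 29 genes, shares of this size past 10 points amount to few genes. Ifitm1 was chosen for its difference and the list was not, so nothing is read from these counts.

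The interferon genes with the largest mean difference upward were Irf9, an interferon regulatory factor, with 8.93, 7.49 and 6.44 points. Next came Mavs, the mitochondrial adaptor of RNA sensors, with 5.19, 7.48 and 9.85 points, and Oasl2, an induced OAS-like protein, with 0, 6.06 and 6.33 points. Downward were Oasl1, another OAS-like protein, with -11.4, -9.72 and -1.70 points, and Tyk2, a kinase on the interferon receptor, with -19.8, -10.5 and 8.41 points. Adar, the RNA-editing enzyme, stood at -6.57, 1.53 and -6.61 points. All were smaller in size than the Ifitm1 difference in the same cell type, which was known when Ifitm1 was chosen.

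**Figure D5:**
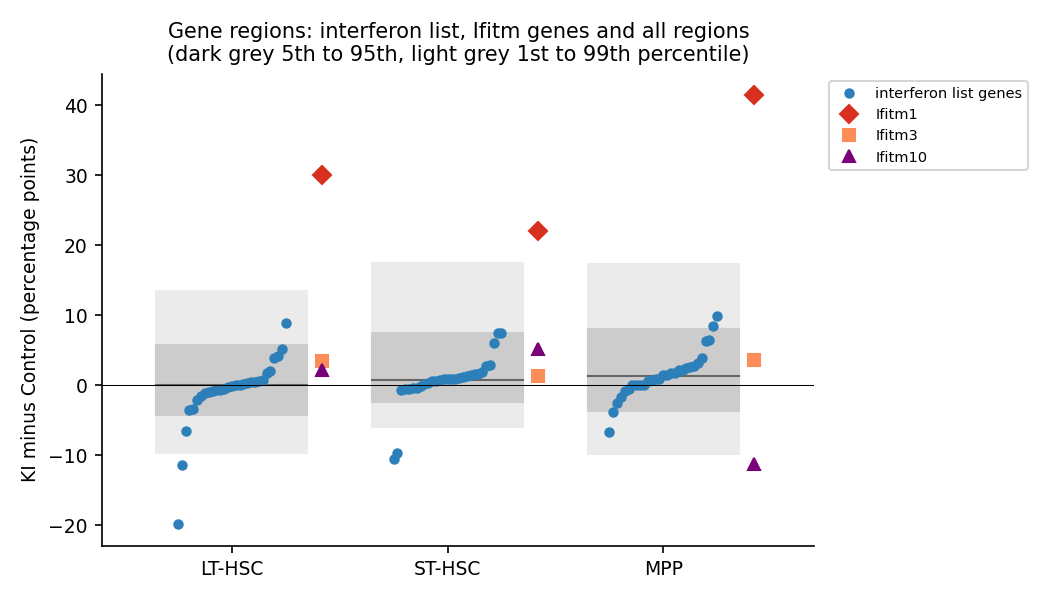
KI minus Control difference in mean methylation (percentage points) for the 29 measured genes of the interferon list (dots, ordered by value) and for Ifitm1, Ifitm3 and Ifitm10, by cell type; grey bands span the 5th to 95th and the 1st to 99th percentile of all gene regions, and a grey line marks their median. Ifitm1 lies at 22 to 41.4 points, and no gene of the list reaches 10 points upward.

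Of 16982 other gene regions, those whose levels over the 6 libraries were nearest to Ifitm1, by root mean square difference, were the lncRNA gene Gm10865 (4.92 points), Nrsn2 (5.73), Ackr3 (6.60), Cmya5 (8.54) and Blnk (8.68). Gm10865 was at 32.7%, 33.8% and 25.9% in the Control libraries, against 59.1%, 51.3% and 51.8% in the KI ones. Ackr3, which encodes an atypical chemokine receptor, was at 21.7%, 37.0% and 22.5% in Control and at 51.4%, 56.2% and 51.8% in the KI libraries. Blnk, an adaptor of B cell receptor signalling, was at 31.9%, 33.0% and 27.8% in Control and at 45.9%, 64.3% and 63.4% in the KI libraries. These regions lie on other chromosomes and were picked by likeness, so their levels are a description.

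Where an Ifitm CpG was read on both strands, levels were mostly at the ends of the scale. There were 7 such CpGs, at Ifitm3, Ifitm6 and Ifitm10, giving 21 pairs over the libraries, and 13 of these pairs were at 0% or at 100% on both strands. The highest difference between strands was 18.5 points, and no Ifitm pair with both strands at 20 to 80% was measured. Over all CpGs at 20 to 80% the median difference between strands was 27.8, 20.4 and 40 points in the Control libraries, and 21.9, 16.9 and 16.7 points in KI. Control MPP, lowest of the 6 at Ifitm1 and highest at the Ifitm10 start, had the largest difference between strands at such partly methylated CpGs. The part of this spread in the Ifitm1 and Ifitm10 differences was not tested.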

How the data were processed

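Per the labels' protocols, enhanced reduced representation bisulfite libraries were made from sorted marrow cells and sequenced on a HiSeq2000. Bismark 0.10.0, SAMtools 1.0, methylKit 0.9.1 and build mm10 appear in the submitters' processing notes; details of settings, duplicate removal and conversion were not given in the sources used here. Per the file headers, the authors deposited for each cytosine a read count (at least 10 in each library) and the percent of reads showing C or T. Coverage times percent gave whole methylated reads at 100% of positions, within 0.01% of the coverage.

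The strands of a CpG were treated as separate positions. A gene's level was the unweighted mean over shared positions in its RefSeq extent and 2000 bases on each side. Gene extents, starts and sequences came from RefSeq tables of GRCm38.p6. Wilson 95% intervals, Fisher exact tests with Benjamini-Hochberg adjustment (Python 3.11.15) and limma 3.58.1 in R 4.3.3 (prior count 1, variance trend, regions with at least 5 shared positions, adjusted p under 0.05) were used. The Fisher test was run on simulated reads without spread beyond counting. The limma fit was run on simulated regions with larger changes than those fitted at the members. Neither run can show how the tests hold for these data. PCR copies are not independent molecules, so intervals at single positions cover counting error only. Pooled reads were summed over positions, so a read over several positions counted more than once and pooled intervals are too narrow. The labels do not state whether 1 pool of mice supplied all cell types of a genotype.

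The members, lists and tests were chosen with earlier results of these data known. Named were all members, every Ifitm1 position, genes overlapping a member region, interferon genes with a 10-point difference of 1 sign in each cell type or else the 3 largest mean rises and falls, and the 5 regions nearest to Ifitm1. Alternatives covered read minimums, flanks, strands, thresholds, pooling and left-out libraries.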

Additional observations from a re-analysis of the deposited data

Results flagged for a closer look

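The mean of the Ifitm10 region was higher in KI in 2 cell types and lower in MPP. The KI library was above its Control by 2.15 points for LT-HSC and 5.20 points for ST-HSC, and the difference for MPP was -11.3 points. With 1 library in each group, every KI library of 2 cell types was above its Control and the third was below. The difference between the cell types was not tested. Control MPP was at 46.7% in the start windows, against 13.9 to 24.0% in the other 5 libraries, and covered 7 of the 25 positions there.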

How the results depend on the processing

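Replicates could not be paired, because each genotype and cell type was 1 library without a replicate number in the labels. Genotype was a block in limma. The Ifitm1 difference kept its direction in 8 alternatives. It was 27.5 to 31.8 points in LT-HSC, 16.1 to 30.8 in ST-HSC and 34.6 to 51.7 in MPP, the last from forward reads alone. Pair coverage, all positions, a flank of 5 kb and merged strands kept the same 5 positions, so those values could not differ from the main ones. At least 20 reads left the reverse strand positions only. All alternatives reuse the contrast that chose Ifitm1, so no support is drawn from them. Without a flank Ifitm1 and Ifitm3 had no value, since all their positions lie outside the genes. With all positions of each library, Ifitm10 stood at -14.2 points in LT-HSC, 14.4 in ST-HSC and, reversed, 3.14 in MPP. The MPP value was -11.3 points as reported, -19.9 with at least 20 reads, -5.73 in pooled reads and -1.37 over positions covered in both libraries of the pair. With the mean of per-position log2 ratios, the Ifitm1 ST-HSC minus LT-HSC value reversed to 0.16.

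Shared Ifitm positions higher in KI numbered 3, 2 and 6 of 27 in LT-HSC, ST-HSC and MPP at 25 points, with the shares over all positions given above. They numbered 8, 6 and 8 of 27 at 10 points, and 1, 1 and 3 of 27 at 40 points. With at least 20 reads they numbered 1, 1 and 3 of 20. Shares over all positions were not computed at these other settings, so nothing is read from the counts. A Fisher exact filter on this contrast was not used, since the contrast chose the members. Interferon genes apart by the threshold numbered 2, 1 and 0 in LT-HSC, ST-HSC and MPP. These were of 29 genes. At 5 points they were 5 of 29 in each cell type, with at least 20 reads 1 of 20 in each, and with pooled reads 5, 2 and 3 of 29. Shares over all gene regions were not computed at these other settings, so nothing is read from these counts either.

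Regions called by limma numbered 0 in both comparisons, and 4 (ST-HSC) and 77 (MPP) with per-position ratios. Leaving out 1 library gave 0 to 8 for ST-HSC and 0 to 284 for MPP, with 159 without Control ST-HSC, 148 without KI ST-HSC and 284 without KI MPP. The Ifitm regions were called in none of these fits, with a lowest adjusted p of 0.215. Depth at single Ifitm1 positions ran from 13 reads, on the forward strand in Control MPP, to 93 in KI LT-HSC, and it limits the values with few reads.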
